A study of Mus musculus with 17 samples.

Results

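Chemokines and their receptors were described here across 16 mouse libraries of implanted and endogenous fat. Members were all genes with symbols of the Ccl, Cxcl, Ccr and Cxcr families, plus Xcl1, Xcr1, Cx3cl1, Cx3cr1 and the atypical receptors Ackr1 to Ackr4. The names gave 62 of the 54658 genes in the deposited table, of which 40 are ligands, 18 are signalling receptors and 4 are atypical receptors. A total of 49 members (30 ligands, 15 receptors and 4 atypical receptors) had at least 1 CPM in at least 2 libraries and were tested among 17964 genes. CPM is the reads of a gene per 1000000 reads of the library.

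Chemokines are small secreted proteins that steer leukocytes by binding receptors coupled to G proteins on the cell surface. Inflammatory chemokines are made by macrophages and stromal cells under stimulation and draw monocytes, neutrophils, eosinophils and effector T cells. Homeostatic chemokines place lymphocytes and dendritic cells in lymph nodes and hold stem cells and leukocytes in their niches. Atypical receptors bind the same ligands without the usual signal and take them up or carry them. In fat, the pair of Ccl2 and Ccr2 is known for the entry of monocytes that become adipose tissue macrophages.

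The study concerns fat-derived leptin and complement factor D in osteoarthritis. Hosts of a type called LD, which the sources do not spell out, received mouse embryonic fibroblasts under the skin over the sternum at 3 to 5 weeks of age, and these cells formed a tissue like fat. Donor pups were wildtype (codes MWM and MWF) or lacked leptin on both alleles (KO, codes MKM and MKF), the last letter standing for male or female, although the design text also calls the hosts male. Endogenous fat was visceral with knee surgery (EVM), visceral without surgery (EVFN), visceral under a code that is not spelled out (EVFY) or subcutaneous from males with surgery (ESM). Surgery, a destabilization of the meniscus of 1 knee, took place at 16 weeks, and all mice were ended at 28 weeks. Every implant group had surgery, so no comparison among implants bears on it. The endogenous fat's strain, its hosts and the sex of EVM, EVFY and EVFN are not stated, and each code has 2 libraries. The labels also hold ESF (subcutaneous, female, surgery), not analysed here.

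Library totals ran from 16444965 to 25805502 reads, so that 1 read was worth 0.0388 to 0.0608 CPM. The labels give the tissue as ganglia, but 8 adipocyte genes summed to 9982 to 31034 CPM and 8 sensory neuron genes to 5.48 to 52.8 CPM. The library labelled EVFN1 stood apart from the other visceral fat, and the library labelled MKM1 from the other KO implants. They are shown singly and left out of group means and of the main fit, which leaves EVFN and MKM with 1 library each. Leptin (Lep), the gene lost in the KO donors, measured 1336 to 1726 CPM in the 3 KO implants kept, 1045 CPM in MKM1 and 806 to 2675 CPM in the WT implants, so the transcript did not check the genotype, and the allele is not given. The Y-linked gene Ddx3y and the X-linked RNA Xist were both present in MWM1 (13.1 and 494 CPM) and MWM2 (17.3 and 466 CPM), and MKM1, labelled male, had 0 CPM of Ddx3y and 352 CPM of Xist. EVFN1 also held both (29.3 and 278 CPM), while EVFN2 had 0 and 273 CPM and MKM2 80.6 and 3.77 CPM. The sex codes are therefore used as names only. Whether both libraries of a code come from separate mice is not stated, so p-values measure only their spread, possibly technical. Reads per library of a pair differed by more than sampling noise (chi-square per degree of freedom 22.3 to 103 among pairs kept whole). The pairs holding EVFN1 and MKM1 were at 214 and 184. In such bulk tissue, fewer cells of a type and less RNA per cell cannot be told apart.

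The fat expressed a few chemokines at high level and most at low level. Per kilobase of exon and averaged over the 14 libraries, Ccl6, a ligand of Ccr1 expressed by macrophages, stood first at 108 CPM per kb. Ccl8, a monocyte chemoattractant, followed at 73.2 CPM per kb, then the eosinophil attractant Ccl11 (eotaxin) at 65.4. Cxcl14, a chemokine of skin and fat stroma, was at 48.7 CPM per kb. Ccl9, like Ccl6 a ligand of Ccr1, was at 45.5, and Cxcl12, the stromal ligand of Cxcr4, at 37.4 CPM per kb. Receptors were lower, with Cxcr4 at 10.1, the monocyte receptor Ccr2 at 5.77 and the homing receptor Ccr7 at 4.28 CPM per kb. The Ccr7 level came mostly from MWF1 (61.8 CPM) and MWF2 (30.1 CPM). Its mean over the 14 libraries was 8.47 CPM and its median 1.99 CPM. The scavenging receptor Ackr3, which takes up Cxcl12, stood at 16.3 CPM per kb, above every signalling receptor. These levels ignore exon use and mapping, and their order among close neighbours is not tested.

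The 13 members that did not pass the filter were at most 2.87 CPM in any library. They were the ligands Ccl1, Ccl17, Ccl19-ps3, Ccl21b, Ccl26, Ccl27b, Cxcl3, Cxcl5, Cxcl17 and Xcl1 and the receptors Ccr8, Cxcr1 and Cxcr2. Ccl21b and Ccl27b had 0 reads in all 16 libraries; both belong to sets of near-identical copies, so reads of Ccl21a and Ccl27a are uncertain. Exons of 11 members overlap those of another gene (Ackr1, Ackr4, Ccl25, Ccl27a, Ccr9, Cx3cr1, Cxcl10, Cxcl11, Cxcl16, Cxcr5 and Xcl1), and strand use in counting is not given, so their values may hold reads of the neighbour. Another 3 members, Ccl19-ps1, Ccl20 and Ccr4, reached 1 CPM in MWF libraries only, so their passing the filter depended on that group.

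Which chemokine led the total differed between KO implants and other tissue. Ccl6 was the most abundant ligand by CPM in MKM2, MKF1 and MKF2, and Cxcl12 in all 4 WT implants, all 5 visceral and both subcutaneous libraries. Ccl6 and Ccl9 together made 51.8% of all ligand CPM in MKM2, 48.6% in MKF1 and 54.7% in MKF2. WT implants had 10.3% to 30.7%, visceral fat 15.2% to 36.3% and subcutaneous fat 22.3% and 30.3%. No WT implant or endogenous library reached the lowest of the 3 KO implants. The library labelled EVFN1 had 59.9% and that labelled MKM1 30.5%. Summed ligand CPM was 1339 to 1569 in KO implants and 775 to 1274 in WT implants.

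**Figure D1:**
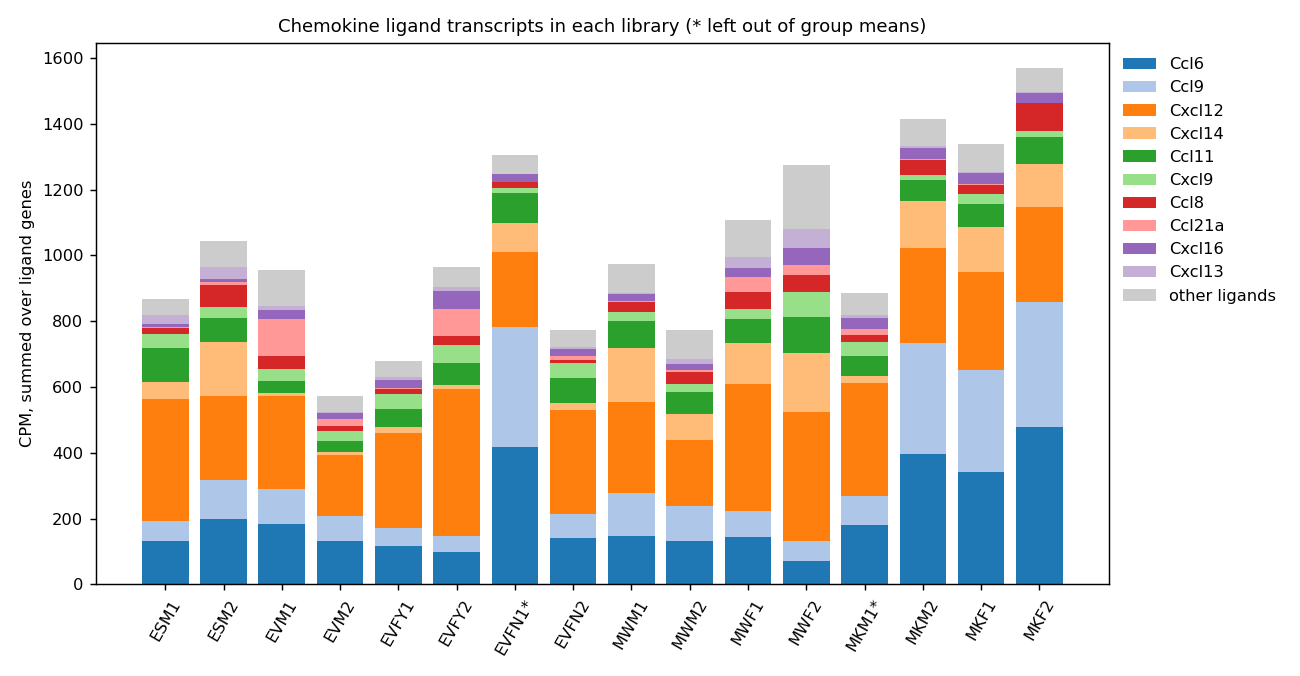
Stacked bars of ligand CPM (vertical axis, summed over ligand genes) in each of the 16 libraries, coloured by ligand; asterisks mark EVFN1 and MKM1. Ccl6 and Ccl9, at the foot of each bar, hold 48.6% to 54.7% of the bar in MKM2, MKF1 and MKF2 and 10.3% to 30.7% in the 4 WT implants.

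KO and WT implants were compared to ask how the leptin genotype of the donor cells goes with chemokine expression in the implant. Of the 49 tested members, 6 were higher and 4 lower in KO implants. The higher ones included the Ccr1 ligands Ccl9, Ccl6 and Ccl3, the neutrophil attractant Cxcl2 and the receptor Ccr3. The lower ones were Cxcl15, Ccl20, Cxcl13 and the pseudogene Ccl19-ps1. Of these, Ccl20 and Ccl19-ps1 passed the filter through MWF libraries only. Calls used limma on log2(CPM + 0.5), with an adjusted p under 0.05 over all genes tested and equal weight for male and female groups. The same rule called 10.8% of all tested genes, 6.67% higher and 4.1% lower, beside 12.2% and 8.16% of members. The values of 8 members in the 3 KO implants all lay above those in the 4 WT implants, and of 4 all below, while 14.3% and 12.6% of all genes did so. The median log2 difference was -0.37 over tested members and -0.06 over all tested genes.

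Ccl9 (chromosome 11, 83572919 to 83578636, minus strand, mm10), also known as MIP-1 gamma, attracts myeloid cells. It measured 337 CPM in MKM2, 309.9 in MKF1 and 380.4 in MKF2, against 131 CPM in MWM1, 106 in MWM2, 79.5 in MWF1 and 60.4 in MWF2. All KO implants exceeded all WT implants, and the means were 343 ± 35.5 CPM (SD, n = 3) and 94.2 ± 30.8 CPM (SD, n = 4), a ratio of 3.64 (log2 difference 1.91, SE 0.24, adjusted p = 0.00205). Visceral fat had 47.2 to 107 CPM and subcutaneous fat 61.4 and 118 CPM, so WT implants lay near endogenous fat and KO implants apart from it. Ccl6 (chromosome 11, 83587882 to 83593087, minus strand), which lies beside it on the same strand, measured 396 CPM in MKM2, 340.4 in MKF1 and 477 in MKF2, and 147 CPM in MWM1, 132 in MWM2, 143 in MWF1 and 70.4 in MWF2. The groups did not overlap (ratio 3.28, log2 difference 1.75, SE 0.27, adjusted p = 0.0054), and MWF2 was the lowest of all implants for both genes.

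Ccl3 (chromosome 11, 83647844 to 83649355, minus strand), or MIP-1 alpha, binds Ccr1 and was far less abundant. Its values were 4.89 CPM in MKM2, 7.54 in MKF1 and 5.75 in MKF2, against 1.17 CPM in MWM1, 1.75 in MWM2, 0.744 in MWF1 and 1.70 in MWF2, with no overlap (log2 difference 1.79, SE 0.31, adjusted p = 0.00805). Ccl4, the neighbouring MIP-1 beta gene, did not pass the test, at 1.46 to 3.14 CPM in KO and 0.372 to 1.28 CPM in WT implants (log2 difference 1.29, SE 0.36, adjusted p = 0.0548). Ccl5 (RANTES), a ligand of Ccr1 and Ccr3 made by T cells among others, was 8.86 CPM in MKM2, 18.0 in MKF1 and 7.68 in MKF2, and 4.65 CPM in MWM1, 3.84 in MWM2, 30.3 in MWF1 and 37.5 in MWF2. Its groups overlapped, since MWF1 and MWF2 were the highest and MWM1 and MWM2 the lowest (log2 difference -0.24, SE 0.42, adjusted p = 0.742). These 5 ligand genes lie within 139 kb of chromosome 11 (83525778 to 83664683), and 3 of them were higher in KO implants. In the other cluster on that chromosome, Ccl2, Ccl7, Ccl8, Ccl11 and Ccl12 were tested and none was called.

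Ccr3 (chromosome 9, 124021972 to 124031689, plus strand), the eotaxin receptor known from eosinophils, was low throughout, at 3.67 CPM in MKM2, 4.54 in MKF1 and 3.78 in MKF2, against 0.329 CPM in MWM1, 0.395 in MWM2, 0.797 in MWF1 and 0.547 in MWF2. Even so its groups did not overlap (log2 difference 2.13, SE 0.23, adjusted p = 0.000922). Its ligands did not pass the test: Ccl11 was 64.0 to 81.0 CPM in KO and 65.6 to 109.6 CPM in WT implants (log2 difference -0.21, SE 0.18, adjusted p = 0.48) and Ccl24, another eotaxin, 2.46 to 5.49 and 2.58 to 7.33 CPM (log2 difference -0.37, SE 0.36, adjusted p = 0.537). Ccr1, which Ccl3, Ccl6 and Ccl9 bind, was 9.57 CPM in MKM2, 9.47 in MKF1 and 9.19 in MKF2, and 4.23 CPM in MWM1, 4.86 in MWM2, 7.76 in MWF1 and 5.17 in MWF2. Ccr1 did not overlap between the groups and did not pass the test (log2 difference 0.76, SE 0.27, adjusted p = 0.103).

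Ccr2 did not pass between the genotypes, at 39.7 CPM in MKM2, 33.0 in MKF1 and 33.8 in MKF2, and 44.1 CPM in MWM1, 31.6 in MWM2, 43.5 in MWF1 and 60.1 in MWF2 (log2 difference -0.26, SE 0.27, adjusted p = 0.576). Its ligand Ccl2 (MCP-1) was 10.1 CPM in MKM2, 9.71 in MKF1 and 13.8 in MKF2, and 12.2 CPM in MWM1, 13.2 in MWM2, 4.57 in MWF1 and 6.14 in MWF2 (log2 difference 0.37, SE 0.35, adjusted p = 0.528). The groups overlapped for both, and a difference that misses the threshold does not show equal levels.

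Cxcl2 (MIP-2, chromosome 5, 90903871 to 90905938, plus strand) attracts neutrophils through Cxcr2. It was 3.05 CPM in MKM2, 3.33 in MKF1 and 2.75 in MKF2, against 2.11 CPM in MWM1, 0.904 in MWM2, 0.159 in MWF1 and 0.547 in MWF2. MWM1 came nearest to the KO implants and the MWF pair was lowest (log2 difference 1.49, SE 0.34, adjusted p = 0.0261). The call was lost when MKF1, MKF2, MWM2 or MWF1 was left out. Its relative Cxcl1 was 4.02 CPM in MKM2, 1.88 in MKF1 and 2.45 in MKF2, and 6.53 CPM in MWM1, 11.2 in MWM2, 0.638 in MWF1 and 2.07 in MWF2, with the KO implants inside the WT range (log2 difference -0.19, SE 0.34, adjusted p = 0.759). The receptor Cxcr2 was at most 0.547 CPM in these implants, and 6 neutrophil genes summed to 7.34 to 11.6 CPM in KO and 8.23 to 11.4 CPM in WT implants.

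**Figure D2:**
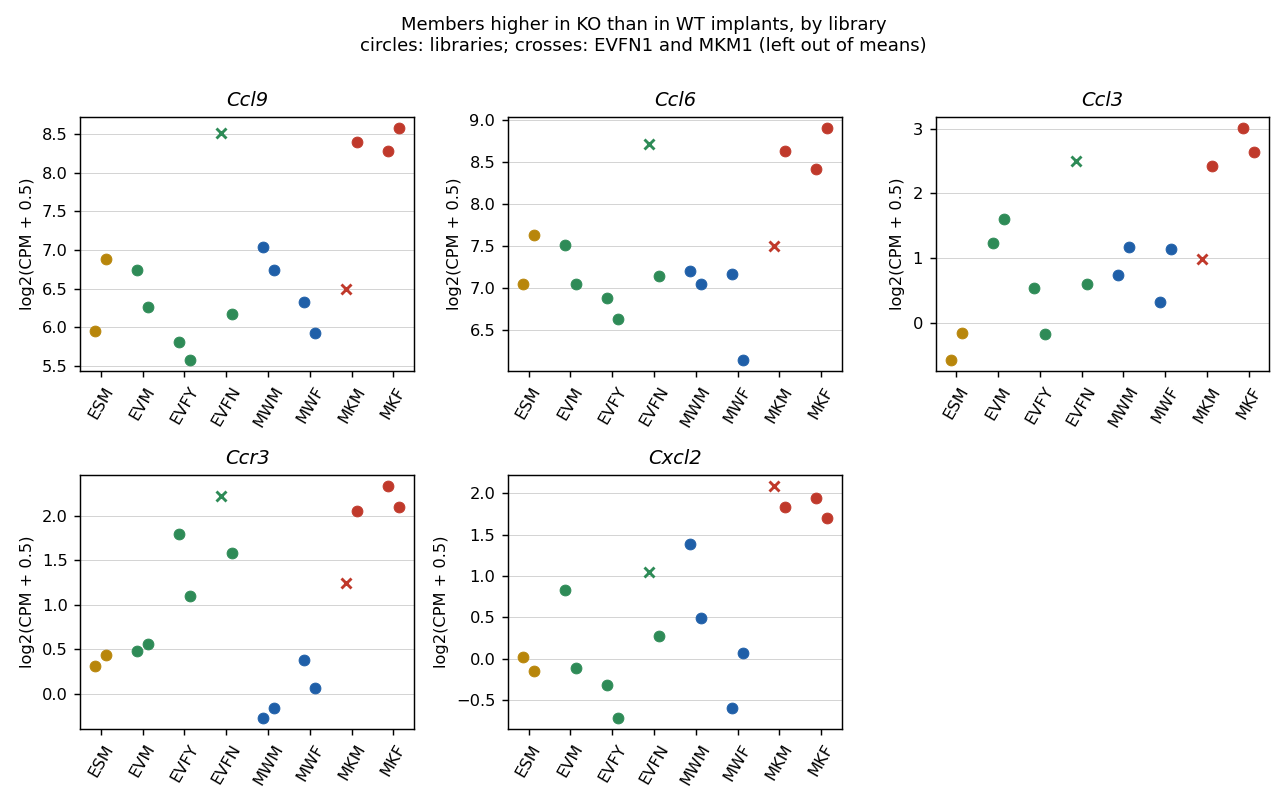
Values of 5 members higher in KO implants in every library, as log2(CPM + 0.5) by group code; circles are libraries and crosses are EVFN1 and MKM1. For Ccl9, the 3 KO implants lie at 309.9 to 380.4 CPM, above all 4 WT implants at 60.4 to 131 CPM, with EVFN1 at 365 and MKM1 at 89.5 CPM.

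The rises came with macrophage genes. The sum of 9 macrophage markers (Adgre1, Cd68, Csf1r, Mrc1, Cd163, Lyz2, Itgam, Trem2 and Gpnmb) was 5961 to 7073 CPM in KO and 1201 to 1769 CPM in WT implants, and 8 of the 9 were higher and 0 lower in KO implants, all but Cd163. The library labelled EVFN1 summed to 8940 CPM and MKM1 to 1598 CPM, which go with their Ccl9 values. No marker was at 0. The part of macrophage number in the changes of Ccl9, Ccl6 and Ccl3 was not tested.

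The results depended on MKM1 and EVFN1, the pair left out. With all 16 libraries as labelled, 5 members were called, 2 higher (Ccr3 and Cxcl2) and 3 lower (Cxcl15, Ccl20 and Ccl19-ps1). The share of all genes called in that setting is not given here, so the count is not read as particular to the members. Then Ccl9 was at 1.43 (adjusted p = 0.142), Ccl6 at 1.47 (adjusted p = 0.0721), Ccl3 at 1.43 (adjusted p = 0.109) and Cxcl13 at -2.08 (adjusted p = 0.103) on the log2 scale. Ccr3 and Cxcl15 kept their call in all 15 alternatives run. MKM1 itself had 89.5 CPM of Ccl9, within the WT range, and 180.2 CPM of Ccl6, between the WT and KO ranges.

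Of 29 tested genes that carry or handle chemokine signals and are not members, 9 were higher and 0 lower in KO implants (median log2 difference 0.37). They included Pik3r5, a regulatory subunit of the lipid kinase below these receptors, at 1.33 (adjusted p = 0.000462), the receptor-desensitizing Arrb2 at 0.98 (adjusted p = 0.00198), and the platelet chemokine Pf4 at 1.48 (adjusted p = 0.00288). Of 14 leukocyte adhesion genes, 3 were higher and 0 lower, namely Itgax at 3.08 (adjusted p = 0.000548), the shared integrin chain Itgb2 at 2.06 (adjusted p = 0.00191) and the selectin ligand Selplg at 0.80 (adjusted p = 0.0366). Of 16 genes that induce chemokines, Tnf at 0.91 (adjusted p = 0.0302) and Ltbr at 0.55 (adjusted p = 0.0153) were higher and Relb at -0.50 (adjusted p = 0.0216) was lower. Several of these genes are expressed by macrophages. Over all tested genes, 6.67% were higher and 4.1% lower in KO implants.

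**Figure D3:**
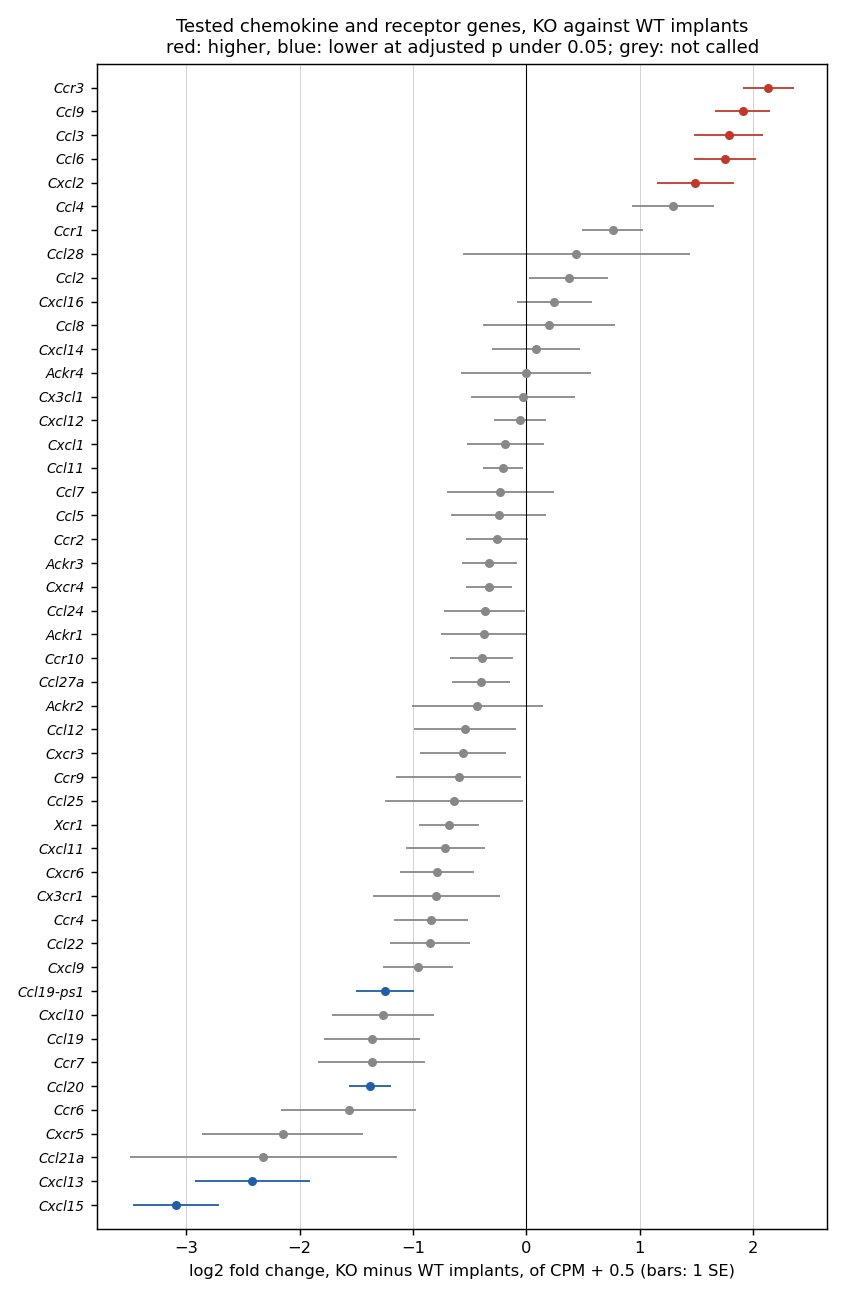
Log2 difference between KO and WT implants for 48 tested members, with bars of 1 standard error, on log2(CPM + 0.5); red points were higher and blue points lower at an adjusted p under 0.05, and grey points were not called. The called members to the right run from Cxcl2 at 1.49 to Ccr3 at 2.13, and Cxcl15 at -3.09 is the lowest.

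Cxcl15 (chromosome 5, 90794534 to 90803067, plus strand), or lungkine, is known from airway epithelium. It was 1.22 CPM in MKM2, 1.26 in MKF1 and 0.172 in MKF2, against 11.2 CPM in MWM1, 5.03 in MWM2, 15.0 in MWF1 and 17.9 in MWF2, with no overlap (ratio of WT to KO 13.9, log2 difference -3.09, SE 0.38, adjusted p = 0.00163). Lung epithelial genes went with it among implants, since 5 of 6 were lower in KO implants and their sum was 14.5 to 51.1 CPM there and 197 to 589 CPM in WT implants. In fat the lung sum was 22.1 CPM in ESM1 and 114 in ESM2, both with 0 reads of Cxcl15. It was 1.75 to 26.9 CPM in visceral fat. Other tissues' genes also stood high in some implants: 6 liver genes summed to 2134 to 9861 CPM and 6 skeletal muscle genes to 2716 to 37497 CPM in WT implants, with 0 and 1 gene called between the genotypes. KO implants varied, with liver sums of 7349 CPM in MKM2, 1255 in MKF1 and 42.1 in MKF2, where endogenous fat had 9.60 to 64.6 CPM. Muscle sums were 75.0 CPM in MKM2, 74.6 in MKF1 and 2218 in MKF2, 45.9 to 739.5 CPM in visceral fat, 136 in ESM1 and 15740 in ESM2. Sensory neuron genes also moved with Cxcl15, 6 of 8 being lower in KO implants, with sums of 9.83 to 28.1 CPM there and 39.7 to 52.8 CPM in WT implants. The part of such tissue in the Cxcl15 difference was not tested.

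Cxcl13 (chromosome 5, 95956951 to 95961068, plus strand), the B cell attractant of follicles, was 3.56 CPM in MKM2, 3.67 in MKF1 and 2.40 in MKF2, against 4.28 CPM in MWM1, 16.7 in MWM2, 32.9 in MWF1 and 59.2 in MWF2. The KO implants were all below the WT ones (log2 difference -2.42, SE 0.51, adjusted p = 0.0191), but MWM1 was close to MKF1, and the call was lost without MKF2. Ccl20 (chromosome 1, 83116766 to 83119167, plus strand), the ligand of Ccr6, was 0.560 CPM in MKM2, 0.0483 in MKF1 and 0 in MKF2, against 0.329 CPM in MWM1, 0.339 in MWM2, 4.25 in MWF1 and 3.77 in MWF2. Only the MWF pair was above 1 CPM (log2 difference -1.38, SE 0.19, adjusted p = 0.00291), and MKM2 exceeded both MWM libraries. Ccl19-ps1, also called, was at 0.0859 to 0.305 and 0.452 to 2.92 CPM. The call was lost for Ccl19-ps1 without MKF2 or MWM1 or MWM2 and with a pseudocount of 0.1 or edgeR. When MWM alone stood for the WT side, a comparison chosen after seeing the data, Ccl20 was at -0.16 (adjusted p = 0.69), Cxcl13 at -1.27 (adjusted p = 0.219) and Cxcl2 at 0.89 (adjusted p = 0.2), whereas Ccl9 remained called at 1.53 (adjusted p = 0.0156). Cxcl15 also remained called, at -2.56 (adjusted p = 0.0117).

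Promoter sequences are shown for 8 of the members named above, from the RefSeq table (GRCm38.p6), which held 45 of the 62 members. Each is the 250 bases before the annotated start, 5′ to 3′, on the gene's strand. Capitals mark matches to the searched motifs on either strand. These were TGANTCA for AP-1, GGNNTTTCC for NF-kappaB-like sites, GAGGAAG for the PU.1 core, TTGCNNAA for C/EBP, CACGTG for an E-box and TATAAA for a TATA box, and matches to different motifs may overlap. Of 32851 windows in the table, each searched over the 250 bases before the start, 6.75% held the first, 4.93% the second, 10.6% the third, 9.56% the fourth, 6.02% the fifth and 12.4% the last. The members higher in KO implants come first.
Ccl9: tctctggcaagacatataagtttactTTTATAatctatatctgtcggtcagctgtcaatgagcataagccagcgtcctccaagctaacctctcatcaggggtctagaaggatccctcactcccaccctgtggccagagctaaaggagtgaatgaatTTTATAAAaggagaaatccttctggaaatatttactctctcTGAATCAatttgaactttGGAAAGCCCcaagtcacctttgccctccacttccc
Ccl6: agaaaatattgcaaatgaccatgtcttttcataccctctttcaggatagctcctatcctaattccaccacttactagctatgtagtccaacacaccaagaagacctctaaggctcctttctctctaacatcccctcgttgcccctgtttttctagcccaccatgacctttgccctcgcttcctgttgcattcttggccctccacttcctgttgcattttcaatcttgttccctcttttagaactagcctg
Ccl3: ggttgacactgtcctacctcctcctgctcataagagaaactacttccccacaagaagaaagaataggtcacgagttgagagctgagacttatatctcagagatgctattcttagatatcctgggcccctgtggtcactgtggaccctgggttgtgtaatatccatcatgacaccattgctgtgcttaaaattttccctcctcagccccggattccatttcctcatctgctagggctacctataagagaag
Cxcl2: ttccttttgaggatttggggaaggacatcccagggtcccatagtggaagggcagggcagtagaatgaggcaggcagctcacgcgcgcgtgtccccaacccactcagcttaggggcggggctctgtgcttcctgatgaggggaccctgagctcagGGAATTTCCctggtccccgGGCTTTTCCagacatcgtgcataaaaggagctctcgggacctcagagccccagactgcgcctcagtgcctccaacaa
Ccr3: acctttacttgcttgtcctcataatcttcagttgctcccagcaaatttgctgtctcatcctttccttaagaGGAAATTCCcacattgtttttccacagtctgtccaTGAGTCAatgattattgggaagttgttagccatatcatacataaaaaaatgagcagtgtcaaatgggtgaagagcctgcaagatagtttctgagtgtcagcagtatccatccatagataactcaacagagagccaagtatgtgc
The members lower in KO implants follow.
Cxcl13: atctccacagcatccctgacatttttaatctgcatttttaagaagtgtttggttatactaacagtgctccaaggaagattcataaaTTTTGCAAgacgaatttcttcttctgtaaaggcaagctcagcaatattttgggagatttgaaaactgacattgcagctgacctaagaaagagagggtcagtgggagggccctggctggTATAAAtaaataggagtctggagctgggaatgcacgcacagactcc
Ccl20: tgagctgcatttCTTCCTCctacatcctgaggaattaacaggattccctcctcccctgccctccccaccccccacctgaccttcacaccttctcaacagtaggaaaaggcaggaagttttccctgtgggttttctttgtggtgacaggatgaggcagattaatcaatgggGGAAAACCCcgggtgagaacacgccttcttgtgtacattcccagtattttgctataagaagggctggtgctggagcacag
Cxcl15: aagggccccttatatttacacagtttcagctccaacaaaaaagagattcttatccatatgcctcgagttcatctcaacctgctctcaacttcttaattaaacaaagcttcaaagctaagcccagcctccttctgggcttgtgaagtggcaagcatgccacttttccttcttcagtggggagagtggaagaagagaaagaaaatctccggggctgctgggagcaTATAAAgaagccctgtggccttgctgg
The windows are Ccl9 chr11:83578637-83578886 (minus strand), Ccl6 chr11:83593088-83593337 (minus strand), Ccl3 chr11:83649379-83649628 (minus strand), Cxcl2 chr5:90903649-90903898 (plus strand), Ccr3 chr9:124021721-124021970 (plus strand), Cxcl13 chr5:95956689-95956938 (plus strand), Ccl20 chr1:83116516-83116765 (plus strand) and Cxcl15 chr5:90794284-90794533 (plus strand). The last 28 bases before the Cxcl2 start lie in its own annotated exon, and none of the other windows touches an exon. NF-kappaB-like letters were found before Ccl9, Cxcl2 (2 matches), Ccr3 and Ccl20, and AP-1 letters before Ccl9 and Ccr3. Ccl6 and Ccl3 had no match to any of the 6 motifs, although both rose with Ccl9. A match describes letters and does not show binding, and no match says only that these letters are absent from this window.

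Within WT implants, MWF differed from MWM in homing and lymphocyte receptors. Of the tested members 14 were higher and 1 was lower in MWF, or 28.6% and 2.04%, while 13.7% of all genes were called, 12.2% higher and 1.45% lower. Receptors higher in MWF were Cxcr3, Cxcr4, Cxcr5, Cxcr6, Ccr4, Ccr6, Ccr7, Ccr9 and Xcr1, and ligands were Ccl5, Ccl19, Ccl20, Cxcl13 and Ccl19-ps1. Ccl20, Ccl19-ps1 and Ccr4 passed the filter through MWF alone. Among members with 1 CPM in a library outside MWF, 11 of 46 were higher (23.9%), and among all such genes 11.6%. Each side has 2 libraries, and 10 of the 15 calls were lost on leaving out 1 of them. Without MWM1 these were Ccl19, Ccl19-ps1, Ccl5, Ccr4, Ccr6, Cxcl13, Cxcr5 and Cxcr6, and without MWM2 Ccl19, Ccl19-ps1, Ccl5, Ccr6, Ccr9, Cxcl1 and Cxcr5. Without MWF2 they were Ccl19, Ccl19-ps1, Ccl5, Ccr4 and Cxcl13, and without MWF1 Ccl19, Cxcl13 and Cxcr5. With edgeR Ccl19, Ccl19-ps1, Ccr4, Ccr6, Cxcl13 and Cxcr5 were lost, and Cxcl13 was lost in 9 of 11 alternatives in all. Ccl20, Ccr7, Cxcr3, Cxcr4 and Xcr1 kept their call in every alternative run.

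Ccr7, which guides naive T cells and dendritic cells into lymph nodes, was 1.83 CPM in MWM1, 2.88 in MWM2, 61.8 in MWF1 and 30.1 in MWF2 (log2 difference 3.96, SE 0.60, adjusted p = 0.00451). Its ligand Ccl19 was 0.705 CPM in MWM1, 0.791 in MWM2, 7.23 in MWF1 and 7.24 in MWF2 (log2 difference 2.63, SE 0.53, adjusted p = 0.0155), and Ccl21a, the other ligand, was 2.96 CPM in MWM1, 4.52 in MWM2, 46.2 in MWF1 and 31.9 in MWF2 and did not pass (log2 difference 3.22, SE 1.49, adjusted p = 0.19). Ccl21a was also high in single visceral libraries, at 112 CPM in EVM1 and 81.8 CPM in EVFY2 against 2.06 CPM in EVFY1. Cxcr5, the follicular B cell receptor for Cxcl13, was 0.893 CPM in MWM1, 2.20 in MWM2, 62.7 in MWF1 and 36.8 in MWF2 (log2 difference 4.65, SE 0.90, adjusted p = 0.0126). Cxcr4, which binds Cxcl12, was 13.2 CPM in MWM1, 11.2 in MWM2, 61.0 in MWF1 and 52.4 in MWF2 (log2 difference 2.17, SE 0.26, adjusted p = 0.00209). Cxcl12 itself did not pass, at 275 CPM in MWM1, 202 in MWM2, 387 in MWF1 and 394 in MWF2 (log2 difference 0.73, SE 0.29, adjusted p = 0.132). For each of these receptors both MWF libraries stood far above both MWM libraries.

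Cxcr3, a receptor of effector T cells, was 1.46 CPM in MWM1, 1.13 in MWM2, 16.4 in MWF1 and 19.1 in MWF2 (log2 difference 3.35, SE 0.48, adjusted p = 0.0036). Its interferon-induced ligands Cxcl9, Cxcl10 and Cxcl11 summed to 33.6, 29.0, 35.4 and 89.6 CPM in MWM1, MWM2, MWF1 and MWF2, and none of the 3 was called. Cxcr6, a receptor of tissue T cells, was 0.282 CPM in MWM1, 0.452 in MWM2, 4.36 in MWF1 and 4.99 in MWF2 (log2 difference 2.58, SE 0.42, adjusted p = 0.00608), while its ligand Cxcl16 was 22.4 CPM in MWM1, 17.8 in MWM2, 26.5 in MWF1 and 50.8 in MWF2 (log2 difference 0.86, SE 0.42, adjusted p = 0.212). Xcr1, which marks cross-presenting dendritic cells, was 0.423 CPM in MWM1, 0.339 in MWM2, 5.90 in MWF1 and 5.41 in MWF2 (log2 difference 2.81, SE 0.34, adjusted p = 0.00209), and its ligand Xcl1 stayed under 1 CPM in all 16 libraries. Ccr6, the receptor of Ccl20, was 0.235 CPM in MWM1, 0.508 in MWM2, 19.8 in MWF1 and 14.6 in MWF2 (log2 difference 4.35, SE 0.76, adjusted p = 0.0083). Ccl20 itself reached 1 CPM in MWF only, which is how it passed the filter. The lone member lower in MWF was Cxcl1, at 6.53 CPM in MWM1, 11.2 in MWM2, 0.638 in MWF1 and 2.07 in MWF2 (log2 difference -2.41, SE 0.43, adjusted p = 0.00921).

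Lymphoid markers stood with these receptors. All 8 T cell genes, all 5 B cell genes and all 5 tested genes of lymph node stroma and follicles were higher in MWF. T cell genes summed to 443 to 609 CPM in MWF and 9.12 to 20.2 CPM in MWM, and B cell genes to 454 to 809.5 and 8.41 to 26.2 CPM. Lymph node genes summed to 187 to 352 CPM in MWF and 7.09 to 14.6 CPM in MWM. Their part in the receptor differences was not tested. Ccr9, which marks thymocytes and gut T cells, was 0.282 CPM in MWM1, 0.113 in MWM2, 4.94 in MWF1 and 32.0 in MWF2 (log2 difference 4.26, SE 0.70, adjusted p = 0.00671), and its ligand Ccl25, made by thymic epithelium, was 4.32 CPM in MWM1, 3.61 in MWM2, 3.29 in MWF1 and 31.0 in MWF2 (log2 difference 1.30, SE 0.77, adjusted p = 0.305). In MWF2 alone 6 thymus genes summed to 283 CPM, against 0.638 CPM in MWF1 and 19.7 CPM in MKM2, where Ccr9 was 4.17 CPM.

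**Figure D4:**
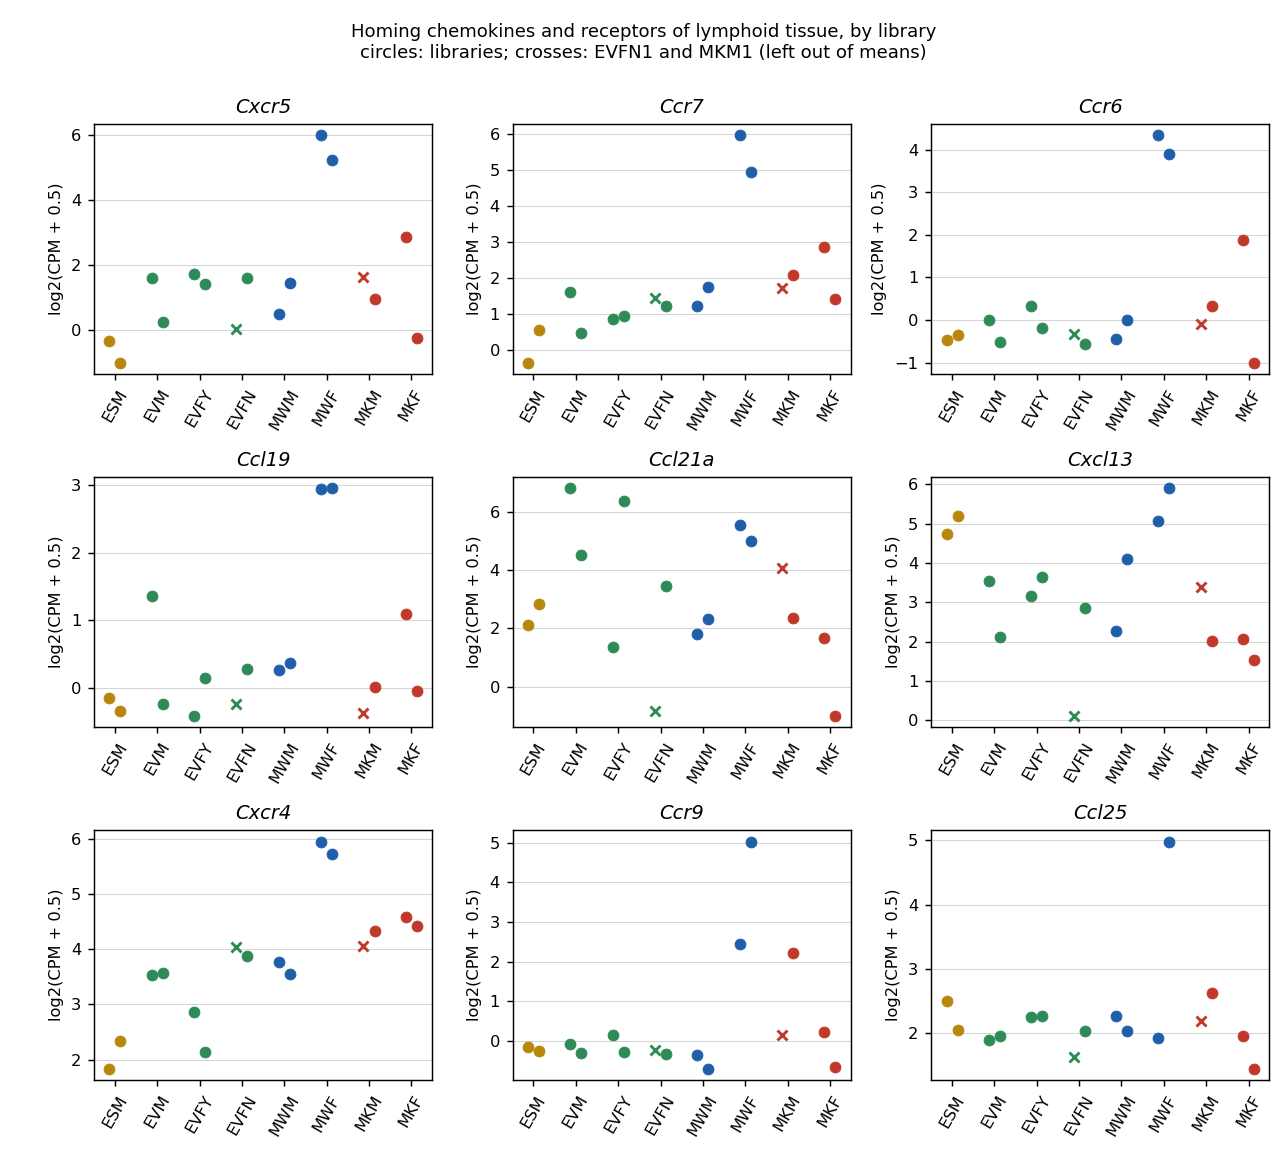
Values of homing chemokines and receptors in every library, as log2(CPM + 0.5) by group code; crosses are EVFN1 and MKM1. Both MWF libraries lie above the others for Cxcr5, Ccr7, Ccr6, Ccl19 and Cxcr4, and MWF2 alone is high for Ccl25, at 31.0 CPM.

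Whether the genotype difference varied with the sex code was tested as the male difference minus the female difference. It passed for Ccl20 at 3.45 (SE 0.38, adjusted p = 0.0311) and Ccr9 at 6.71 (SE 1.11, adjusted p = 0.0451), 2 of 49 members. Of all genes 0.562% were called, 0.551% higher and 0.0111% lower. MKM2 alone stands for KO males, and Ccl20 passed the filter through MWF libraries only. Both calls were lost without MKF2, MWF2, MWM1 or MWM2, with edgeR and with a pseudocount of 0.1. That of Ccr9 was also lost with a pseudocount of 2, median-of-ratios scaling and the replicate block. Ccl20 in MKM2 was 0.560 CPM against 0.329 and 0.339 CPM in MWM, while MKF had 0.0483 and 0 CPM against 4.25 and 3.77 CPM in MWF.

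Implants were next set against endogenous fat to see how far implant tissue matched a natural depot. These comparisons share control libraries, so their members are given side by side and their lists are not compared. The visceral side pools EVM (surgery), EVFN (no surgery) and EVFY (not spelled out), so surgery and sex cannot be told apart from tissue there. On the WT side, Ccl20, Ccl19-ps1 and Ccr4 passed the filter through MWF libraries only. All of them are among the higher calls against visceral fat, and Ccl20 and Ccl19-ps1 among those against subcutaneous fat. Against visceral fat, 13 members were higher and 4 lower in KO implants (26.5% and 8.16%), while 24.6% of all genes were called, 16.3% higher and 8.24% lower. In WT implants 16 were higher and 2 lower (32.7% and 4.08%), with 22.3% of all genes called, 15.8% higher and 6.45% lower. Against subcutaneous fat, 12 were higher and 4 lower in KO implants (24.5% and 8.16%), with 18.2% of all genes, 13.4% higher and 4.87% lower. For WT implants against subcutaneous fat it was 11 higher and 1 lower (22.4% and 2.04%), with 10.4% of all genes, 8.54% higher and 1.82% lower.

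Cxcl14 (chromosome 13, 56288643 to 56296551, minus strand) separated visceral fat from the rest. It was 10.04 CPM in EVM1, 9.96 in EVM2, 17.5 in EVFY1, 13.9 in EVFY2 and 19.8 in EVFN2, whereas KO implants had 130.2 to 143 CPM, WT implants 79.1 to 179 CPM and subcutaneous fat 53.9 and 162 CPM. No visceral library reached any implant or subcutaneous one. The log2 difference from visceral fat was 3.20 (adjusted p = 0.000638) in KO and 3.12 (adjusted p = 0.000769) in WT implants, and from subcutaneous fat 0.56 (adjusted p = 0.436) and 0.48 (adjusted p = 0.512). Visceral was below subcutaneous fat itself (log2 difference -2.64, SE 0.41, adjusted p = 0.0202). Genes of the mesothelium, which covers visceral fat, summed to 184 to 499.6 CPM there and 1.98 to 39.8 CPM in implants and subcutaneous fat. The library labelled EVFN1 had 88.9 CPM of Cxcl14 and MKM1 21.0 CPM.

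Cxcr4 in subcutaneous fat was 3.06 CPM in ESM1 and 4.56 in ESM2, and in visceral fat 11.1 CPM in EVM1, 11.3 in EVM2, 6.79 in EVFY1, 3.89 in EVFY2 and 14.1 in EVFN2, where EVFY2 overlapped with the subcutaneous libraries. KO implants had 19.6 CPM in MKM2, 23.5 in MKF1 and 20.9 in MKF2. Cxcr4 was higher in KO implants than in visceral fat (log2 difference 1.11, SE 0.20, adjusted p = 0.00494) and subcutaneous fat (log2 difference 2.33, SE 0.24, adjusted p = 0.00059), and higher in WT implants by 1.44 (adjusted p = 0.00131) and 2.66 (adjusted p = 0.000948). The WT difference from visceral fat was lost with MWM alone, at 0.36 (adjusted p = 0.336). Its ligand Cxcl12 was 185 to 447 CPM in visceral fat, 257 to 369 in subcutaneous fat, 289 to 298 in KO and 202 to 394 CPM in WT implants, and passed in none of the 8 comparisons.

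Of the atypical receptors, Ackr3 was lower in KO implants than in either fat and in WT implants than in subcutaneous fat, and Ackr2 in KO implants than in subcutaneous fat. Ackr3 was 119 CPM in ESM1 and 119 in ESM2, while visceral fat had 38.2 to 67.0 CPM, KO implants 24.4 to 44.7 CPM and WT implants 30.5 to 52.5 CPM. It was lower than in subcutaneous fat in KO (log2 difference -1.95, SE 0.29, adjusted p = 0.00266) and WT implants (log2 difference -1.63, SE 0.27, adjusted p = 0.00724), and lower than in visceral fat in KO implants (log2 difference -0.86, SE 0.24, adjusted p = 0.0295), where the ranges overlap. WT implants did not pass against visceral fat (log2 difference -0.53, adjusted p = 0.0986). Ackr2, the scavenger of inflammatory CC chemokines, was 23.5 CPM in ESM1 and 18.6 in ESM2, and 2.65 CPM in MKM2, 1.16 in MKF1 and 8.50 in MKF2 (log2 difference -2.62, SE 0.68, adjusted p = 0.0302). For WT implants, at 2.86 to 6.06 CPM, it did not pass (log2 difference -2.18, adjusted p = 0.0634), nor did either kind of implant pass against visceral fat, at 4.73 to 10.9 CPM. The eotaxin Ccl24 was 11.7 to 13.2 CPM in subcutaneous and 6.08 to 12.4 CPM in visceral fat, and lower in KO implants than in either (log2 differences -1.78, adjusted p = 0.0201, and -1.37, adjusted p = 0.0212), at 2.46 to 5.49 CPM. In WT implants it was 2.58 to 7.33 CPM, below visceral fat (log2 difference -1.002, adjusted p = 0.0477), a call that was lost in 13 of 17 alternatives. Ackr1 and Ackr4, which carry or clear chemokines, passed in none of the 8 comparisons.

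Myeloid ligands that separated KO from WT implants also separated KO implants from fat. For Ccl9 the log2 differences from visceral and subcutaneous fat were 2.29 (adjusted p = 0.000355) and 1.99 (adjusted p = 0.00246), for Ccl3 1.90 (adjusted p = 0.00263) and 2.99 (adjusted p = 0.0011), and for Ccl6 1.58 (adjusted p = 0.00355) and 1.30 (adjusted p = 0.0246). Macrophage genes moved with them: of the 9 markers, 8 were higher and 1 lower than in visceral fat, and 7 higher and 1 lower than in subcutaneous fat. Their sum was 5961 to 7073 CPM in KO implants, 1052 to 2920 CPM in visceral and 1146 to 1476 CPM in subcutaneous fat, and its part in these differences was not tested. Ccr3 differed by 1.76 (adjusted p = 0.00327) and Cxcl2 by 1.89 (adjusted p = 0.0132) from subcutaneous fat. Falls against visceral fat were seen for the interferon-induced Cxcl9, at 13.7 to 30.0 CPM against 30.7 to 53.4 CPM (log2 difference -1.23, adjusted p = 0.0178), and the skin chemokine Ccl27a (log2 difference -0.82, adjusted p = 0.0434). Against subcutaneous fat Cxcl13 fell to 2.40 to 3.67 CPM from 26.0 and 36.1 CPM (log2 difference -3.05, adjusted p = 0.00996). With all 16 libraries as labelled, KO implants against visceral fat gave 0 called members with limma, where 11 had an unadjusted p under 0.05, and against subcutaneous fat 1, Cxcr4. The share of all genes called in that setting is not given here, so these counts are not read as particular to the members. Against visceral fat, the call was lost for Ackr3 without EVFN2 or EVFY1 or MKF1 or MKM2, Ccl24 without MKF1 or MKM2 and Ccl27a without EVFN2 or EVFY1 or EVFY2 or EVM1 or EVM2 or MKF1 or MKF2 or MKM2 and with no filter. It was also lost for Cxcl9 without MKF2 or MKM2. Against subcutaneous fat, it was lost for Ackr2 without ESM1 or ESM2 or MKM2 and with edgeR, Ccl24 without ESM1 or ESM2 and Ccl6 without ESM1 or MKF2 and with edgeR. It was also lost for Cxcl13 without ESM2 and Cxcl2 without ESM1 or ESM2.

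WT implants had more Cxcl15 and, mostly in the MWF pair, more of several lymphoid members than endogenous fat. Markers of other cells were higher in the same comparisons, and their part was not tested. Against visceral fat these were 8 of 8 T cell, 1 of 5 B cell, 5 of 5 lymph node, 6 of 6 lung epithelial, 8 of 8 sensory neuron and 6 of 6 liver genes, and against subcutaneous fat 8, 4, 3, 5, 7 and 6. T cell genes summed to 443 to 609 CPM in MWF but only 9.12 to 20.2 CPM in MWM. Their sums were 9.38 to 21.7 CPM in visceral fat and 4.14 to 5.18 CPM in subcutaneous fat. Of 8 adipocyte genes, 6 were lower in WT implants than in visceral fat and 0 than in subcutaneous fat, and in KO implants 4 and 3. Adipocyte sums were 9982 to 22178 CPM in WT implants, 21534 to 31034 in visceral and 18054 to 27682 in subcutaneous fat. Cxcl15 had 1 read over the 5 visceral libraries and 905 over the 4 WT implants; the CPM ratio was 1203 (exact 95% interval from counting, 215 to 47558), and 0 reads in both subcutaneous libraries, so WT implants were at least 143-fold higher, taking 3 reads over the group as the floor. Ccl20 gave a ratio of 103 (28.0 to 858) on 155 against 2 reads, and at least 24.5-fold against 0 reads in subcutaneous fat. It passed the filter through MWF libraries only. Ccl22, the dendritic cell ligand of Ccr4, was 3.52 CPM in MWM1, 5.99 in MWM2, 7.70 in MWF1 and 17.5 in MWF2, against 0.594 to 3.85 CPM in visceral fat (log2 difference 2.04, adjusted p = 0.00292) and 0.854 to 1.25 CPM in subcutaneous fat (log2 difference 2.36, adjusted p = 0.00741). Ccr7 differed by 2.41 (adjusted p = 0.00518) and 3.37 (adjusted p = 0.00591), and Cxcr5 from subcutaneous fat by 3.95 (adjusted p = 0.0158). With MWM alone as the WT side, Ccr7 was at 0.43 (adjusted p = 0.624) and 1.39 (adjusted p = 0.29) and Ccl20 at 0.69 (adjusted p = 0.0667) and 0.74 (adjusted p = 0.158). The calls of Ccl22 against both fats and of Cxcr5 against subcutaneous fat were also lost with MWM alone. Then 5 members were called against visceral and 3 against subcutaneous fat. Ccl24 lost its call against visceral fat without EVFN2, EVFY1, EVFY2, EVM2, MWF2, MWM1 or MWM2, and with all 16 libraries, a pseudocount of 0.1, no filter, edgeR or the replicate block. Against subcutaneous fat, the call was lost for Ackr3 without ESM1 and with all 16 libraries, Ccl22 without ESM1 or ESM2 and with all 16 libraries and Ccr7 without ESM1. It was also lost for Cxcr5 without ESM1 or ESM2 and with edgeR.

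**Figure D5:**
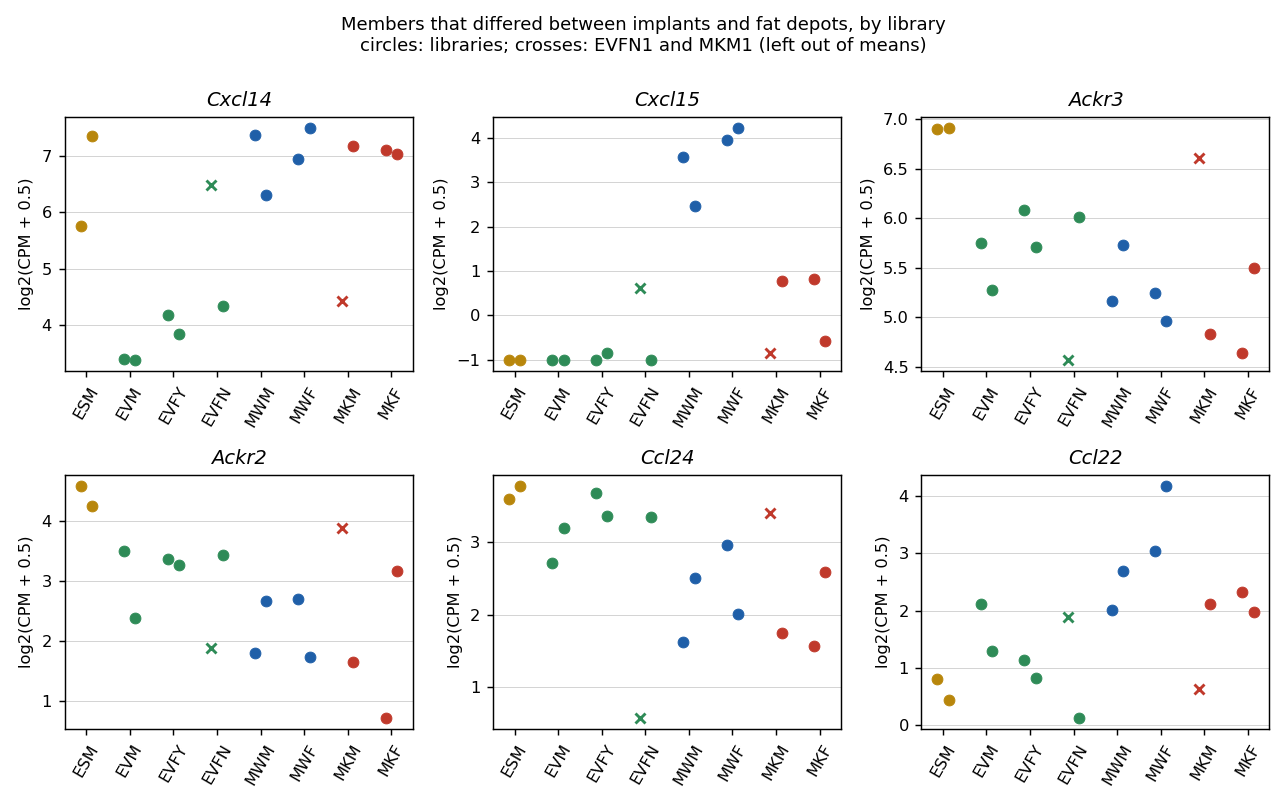
Values of 6 members that differed between implants and fat, in every library as log2(CPM + 0.5) by group code; crosses are EVFN1 and MKM1. Visceral fat (EVM, EVFY, EVFN) lies lowest for Cxcl14, at 9.96 to 19.8 CPM, and both ESM libraries highest for Ackr3, at 119 and 119 CPM, while Cxcl15 is above 2 CPM in WT implants only.

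Further members were higher in implants than in fat. In KO implants against visceral fat these included Ccl2 at 1.48 (adjusted p = 0.0147), Ccl22 at 1.19 (adjusted p = 0.0354), Ccl4 at 1.68 (adjusted p = 0.0101), Ccr1 at 0.82 (adjusted p = 0.0496), Ccr3 at 0.95 (adjusted p = 0.0153), Cxcl15 at 1.43 (adjusted p = 0.0229) and Cxcl2 at 1.78 (adjusted p = 0.00546). Against subcutaneous fat they were Ccl22 at 1.51 (adjusted p = 0.0371), Ccl4 at 1.99 (adjusted p = 0.0143), Ccl5 at 1.98 (adjusted p = 0.0252), Ccr7 at 2.003 (adjusted p = 0.0381) and Cxcl16 at 1.53 (adjusted p = 0.0278). In WT implants against visceral fat they included Ccl11 at 0.57 (adjusted p = 0.0308), Ccl19 at 1.40 (adjusted p = 0.028), Ccl19-ps1 at 1.10 (adjusted p = 0.0107), Ccl2 at 1.11 (adjusted p = 0.0326), Ccl5 at 1.19 (adjusted p = 0.046), Ccr4 at 1.13 (adjusted p = 0.024), Ccr6 at 2.21 (adjusted p = 0.0191) and Ccr9 at 1.80 (adjusted p = 0.0303). Against subcutaneous fat they were Ccl19 at 1.89 (adjusted p = 0.0352), Ccl19-ps1 at 1.71 (adjusted p = 0.00741), Ccl5 at 2.22 (adjusted p = 0.0188) and Xcr1 at 1.26 (adjusted p = 0.0287). Many of these calls rest on few libraries. Leaving out 1 library ended 8 of all 17 member calls for KO implants against visceral fat and 10 of 16 against subcutaneous fat, and for WT implants 10 of 18 and 9 of 12. Against visceral fat, of the further KO calls Ccl22 and Ccr1 were lost without EVFN2, EVFY1, EVFY2, EVM2, MKF1, MKF2 or MKM2, Ccr3 without MKF1 and Cxcl15 without MKF1 or MKM2, while Ccl2, Ccl4 and Cxcl2 were kept. Of the WT calls, Ccl11, Ccl19, Ccl2, Ccl5, Ccr4, Ccr6 and Ccr9 were lost without MWM2, and Ccl19, Ccl5, Ccr4, Ccr6 and Ccr9 with edgeR. Each of these 7 was also lost without at least 1 other library, and Ccl19-ps1 was kept. Against subcutaneous fat, without ESM1 all 5 KO calls and all 4 WT calls given here were lost. Without ESM2 the losses were Ccl22, Ccr7 and Cxcl16 in KO and Ccl19, Ccl19-ps1 and Xcr1 in WT implants. Ccr3 was the other member lower in WT implants than in visceral fat, at -1.18 (adjusted p = 0.00497), so this receptor lay above visceral fat in KO implants and below it in WT implants. Its visceral values were 0.893 CPM in EVM1, 0.969 in EVM2, 2.97 in EVFY1, 1.64 in EVFY2 and 2.495 in EVFN2. Both EVM libraries were lower than the other 3, and all 4 WT implants were lower still.

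Visceral and subcutaneous fat differed in 2 members, 1 in each direction (2.04% each), beside 1.2% of all genes, 0.568% higher and 0.629% lower. Cxcr4 was higher (log2 difference 1.22, SE 0.22, adjusted p = 0.0393) and Cxcl14 lower in visceral fat. With EVFN1 and MKM1 included, Cxcl14 was at -2.28 (adjusted p = 0.42). The call was lost for Cxcl14 without ESM2 or EVFY2 and Cxcr4 without ESM1 or ESM2 or EVFN2 or EVM1 and with no filter or median-of-ratios scaling or edgeR or the replicate block. The visceral side pools EVM (surgery), EVFN (no surgery) and EVFY (not spelled out), while ESM is male with surgery. Ddx3y was 90.7 and 95.5 CPM in EVM and 0 in EVFY and EVFN2, where Xist was 273 to 644 CPM. In this pooled comparison, depot therefore cannot be told apart from surgery or sex. EVM and ESM both had surgery, and ESM too held Ddx3y, at 89.7 and 73.5 CPM. Both EVM libraries lay below both ESM libraries for Cxcl14 and above them for Cxcr4. EVM against ESM alone was not tested.

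EVFN1 and MKM1 went against their labels in the members whose ranges in KO implants and visceral fat do not overlap. There were 17 such members of 49 (34.7%), beside 31.6% of all tested genes. EVFN1 lay nearer the KO implants for 17 of the 17 and MKM1 for 2, and over all genes that do not overlap for 90.8% and 10.1%. Over all 49 tested members, MKM1 lay within the visceral range for 37 and the KO range for 12, and EVFN1 for 21 and 26. Among single genes, MKM1 had 89.5 CPM of Ccl9 and EVFN1 365 CPM. The labels state no link between them, although the 2 samples are listed next to each other.

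Among the remaining tested members, Cx3cl1, a membrane-bound ligand of monocytes and T cells, was 7.15 to 32.5 CPM across the 14 libraries and passed in no comparison. Its receptor Cx3cr1, a marker of patrolling monocytes and microglia, was 16.3 CPM in MWF1 and 35.2 in MWF2 and at most 9.10 CPM elsewhere, higher in WT implants than in visceral (log2 difference 1.59, adjusted p = 0.0462) and subcutaneous fat (log2 difference 2.49, adjusted p = 0.0357). Both of these calls were lost without MWF2 or MWM1, with all 16 libraries, with edgeR and with MWM alone as the WT side. The latter was also lost without ESM1 or ESM2. The call against visceral fat was lost in 12 of 17 alternatives in all, 7 of them leaving out 1 library. Ccl8, Ccl7 and Ccl12, which share Ccr2 with Ccl2, were 9.57 to 84.6, 1.01 to 16.9 and 0.302 to 2.98 CPM and passed in no genotype comparison. Ccr10, the receptor of Ccl27a and Ccl28, was 0.531 to 2.46 CPM. Cxcl11 was 0.0966 to 1.47 CPM and Cxcl10 1.78 to 14.1 CPM, highest in MWF2.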

How the data were processed

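RNA was sequenced after ribosomal RNA removal with random-primed cDNA, per the labels' protocols. The authors deposited a table of CPM values, reads per 1000000, for 54658 genes. Per the submitters' processing notes, STAR 2.5.4, featureCounts (Subread 1.6.3), FastQC 0.11.4 and cutadapt 2.7 were run with mm10; their settings were not given in the sources used here. All nonzero values (100%, tolerance 0.001 reads) were whole multiples of 1 read, which returned the read counts. No further scaling was applied, and 0 columns were left unused.

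Groups follow the codes of the labels. The 17964 genes that reached 1 CPM in 2 or more libraries were tested as log2(CPM + 0.5) with limma 3.58.1 (R 4.3.3; mean-variance trend, robust empirical Bayes, 6 residual degrees of freedom), adjusted by Benjamini-Hochberg over all genes, in 1 model of 14 libraries. The step was tested on simulated data. The log2 differences understate changes of low genes. Ratios divide mean CPM. Alternatives were all 16 libraries, pseudocounts of 0.1 and 2, no filter, median-of-ratios scaling, edgeR 4.0.16 on recovered reads, the replicate number as a block and leaving out single libraries. Positions are from GENCODE M21 on mm10, promoters from RefSeq GRCm38.p6; the motif letters were set after the data were seen.

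Named members are those past the threshold between KO and WT implants with at least 2 CPM on the higher side, up to 6 per direction in other comparisons, the 6 highest by level, and paired receptors or ligands. Members and lists were chosen with earlier results of these data known. Some results are not reported here. Counting intervals and floors (3 reads) cover counting error only.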

Additional observations from a re-analysis of the deposited data

Results flagged for a closer look

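The male minus the female difference between KO and WT implants was 3.45 for Ccl20 and 6.71 for Ccr9 on the log2 scale. Both were called in limma and rest on MKM2 as the only KO male library. Ccl20 passed the filter through MWF libraries only, the same pair that sets its difference. It was 4.25 and 3.77 CPM in MWF, 0.329 and 0.339 in MWM, 0.560 in MKM2 and 0.0483 and 0 CPM in MKF. Both calls were lost with edgeR, with a pseudocount of 0.1 and without MKF2, MWF2, MWM1 or MWM2, and that of Ccr9 in 9 of 13 alternatives in all. Ccr9 was 4.17 CPM in MKM2, 0.282 and 0.113 CPM in MWM, 0.676 and 0.129 CPM in MKF, and 4.94 and 32.0 CPM in MWF. The 6 thymus genes summed to 19.7 CPM in MKM2 and 283 CPM in MWF2, and their part in the Ccr9 difference was not tested.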

How the results depend on the processing

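Of 54 member results named in the comparisons, 12 kept their call in every alternative run for them, 42 lost it in at least 1 and 0 changed direction. With all 16 libraries as labelled 28 were lost, with edgeR on recovered reads 6, with a pseudocount of 0.1, no filter or the replicate block 3 each, with median-of-ratios scaling 2 and with the larger pseudocount 1. With MWM alone as the WT side, run only for WT implants against KO implants or fat, 12 were lost and 11 kept. Outside these 54, Ccl5 and Ccr9 for WT implants against visceral fat and Xcr1 against subcutaneous fat changed direction in 1 alternative each. With all 16 libraries the count of called members went to 5 between KO and WT implants, 6 for the difference between sex codes, 0 (limma) and 1 for KO implants against visceral and subcutaneous fat, 7 for WT implants against subcutaneous fat and 1 between depots; the values of EVFN1 and MKM1 are given with the results. For KO implants against visceral fat 11 members then had an unadjusted p under 0.05, and with edgeR on the 14 libraries 16 were called. Between KO and WT implants a pseudocount of 2 called 16. With edgeR the counts were 9 between MWF and MWM, 11 for WT implants against visceral fat, 1 between depots and 0 for the sex codes, where limma with a pseudocount of 0.1 also gave 0; unadjusted p was under 0.05 for 13 and 15 members. Median-of-ratios scaling gave 1 for the sex codes and 1 between depots, and no filter gave 1 between depots. With MWM alone as the WT side, chosen after seeing the data, 6 members were called between KO and WT implants, 5 for WT implants against visceral and 3 against subcutaneous fat. No share over all genes is given beside the member counts of the alternatives, here or below. The counts are therefore not read as particular to the members.

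Leaving out single libraries gave 7 (without MKF2) to 12 members (without MWF1) between KO and WT implants, 0 (without MKF2, MWF2, MWM1, MWM2) to 5 (without MKF1) for the sex codes, and 7 (without MWM1) to 14 between MWF and MWM. It gave 10 (without MKF1, MKM2) to 18 for KO implants and 9 (without MWM2) to 21 for WT implants against visceral fat. Against subcutaneous fat the counts were 7 (without ESM1) to 16 and 3 (without ESM1) to 15, and between depots 0 (without ESM2) to 2. A library left alone in its group is assumed to vary like the other groups.

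Equal replicate numbers did not pair the libraries: over 15 pairs of groups the deviations correlated at r = -0.44 to 0.34, over 0.1 in 7. With the replicate number as a block, 10 members were called between KO and WT implants, 1 for the sex codes and 1 between depots. Sequencing depth limits members near 1 CPM, where 1 read is 0.0388 to 0.0608 CPM. With 2 libraries a group or fewer, small differences go undetected.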

Other observations

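The ratio of Ccl9 to Ccl6 CPM was higher in 6 of the 7 implants kept than in any endogenous fat library kept. It was 0.797 to 0.911 in KO implants, 0.888 and 0.805 in MWM and 0.556 and 0.858 in MWF. Visceral fat had 0.472 to 0.586 and subcutaneous fat 0.466 and 0.593. The library labelled EVFN1 had 0.872 and MKM1 0.497. MWF1 fell in the range of endogenous fat, and the ratio was not tested.

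Ccl28, an epithelial ligand of Ccr10, was 24.2 CPM in EVM1 and at most 1.73 CPM in every other library. EVM1 also had the highest Ccl21a, at 112 CPM, and the highest lymphatic endothelial sum, at 346 CPM.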
